A study of Rattus norvegicus with 12 samples.

Results

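Zinc finger proteins form one of the largest gene families of mammals, and many of their genes give rise to circular RNAs (circRNAs), closed RNA loops made when a splice donor is joined to an acceptor upstream of it. The genes described here are the zinc finger hosts of a rat liver circRNA table, that is, host genes whose symbol is Zfp, Znf or Zbtb followed by a digit or begins with Zc3h. To them were added the entries that carry an Ensembl gene identifier in place of a symbol but name the same transcript as a symbol entry of one of these genes. This gave 76 hosts of 6501 host genes, with 179 of 21876 table entries at 174 of 21068 junctions. They held 1996 of 284534 back-splice reads, which is 0.701% of all reads. By symbol, 58 hosts fell in the Zfp class (none was written Znf), 9 in the Zbtb class and 9 in the Zc3h class.

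The libraries came from liver of wild type Wistar rats, all made diabetic with a diet drawing 60% of its calories from fat over 4 weeks and 35 mg/kg of streptozotocin, which kills pancreatic beta cells, injected after 16 h without food. Rats above 16.7 mmol/L fasting glucose entered the experiment, so every group shares the diet, the toxin and diabetes before the operation. The relapse group (2 libraries) consisted of rats that became diabetic again after sleeve gastrectomy, the surgical removal of most of the stomach. The sleeve gastrectomy group (5 libraries) was sampled 3 months after that operation, and the sham group (5 libraries) had a mock operation. The sources used here give neither the sampling time of the relapse and sham groups nor the sex, age or fed state of the rats. No label says whether the libraries of a group came from separate animals, so a p-value here speaks only of the spread among these libraries, which may be partly technical.

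In a zinc finger, a zinc ion holds a short loop of protein in shape. Most Zfp proteins carry rows of C2H2 fingers that read DNA, and many of them recruit co-repressors through a KRAB domain. Zbtb proteins join such fingers to a BTB domain, through which they pair up and bind co-repressors or the Cul3 ubiquitin ligase. Zc3h proteins carry CCCH fingers, which mostly bind RNA and act in its processing, export and decay. The class follows the symbol and not the domain: Zfp36 (tristetraprolin, a CCCH protein that destabilises inflammatory mRNAs) counts as Zfp here and had 2 reads.

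Each library held 18176 to 37229 back-splice reads, of which 122 to 266 belonged to zinc finger hosts, and 21 to 39 of the 76 hosts were read in any one library. Levels are given as reads per 1000000 back-splice reads of the library (RPM), and where no read was found the level may still reach 80.6 RPM in the deepest library and 165 RPM in the shallowest, taking 3 reads as the limit. These limits cover counting error only, and no molecular identifiers are described for these reads. A back-splice read crosses a single junction, so levels are per junction or summed over the junctions of a host, not per length of RNA. Of 18 hepatocyte marker genes 15 had reads, and their summed level was 23602 to 24014 RPM in relapse, 26042 to 41728 RPM after sleeve gastrectomy and 29825 to 42364 RPM in sham. Among the other liver cell types, endothelial markers were read at 833 to 1029 RPM in relapse, 378 to 983 RPM after sleeve gastrectomy and 275 to 903 RPM in sham, and 7 of their 11 genes had any reads. Stellate cell, macrophage, lymphocyte, cholangiocyte and erythroid markers stayed at or below 835 RPM in every library, with Des, Col1a1, Clec4f, Cd3e, Krt19 and Hbb at 0 reads, and pancreas and gut markers were at 0 throughout. The relapse libraries thus had the lowest hepatocyte marker sums of all 12. Cyp2c7 alone held 5298 of the 9392 hepatocyte marker reads, so these sums rest largely on 1 gene. The 8 tested markers had a median log2 fold change of -0.44 in relapse against sleeve gastrectomy and -0.50 in relapse against sham. The part that marker levels play in the relapse values below was not tested. In bulk tissue, fewer cells of a type and less RNA per cell cannot be told apart.

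Reads were unevenly spread over the family. The 10 hosts with the most reads held 62.4% of the zinc finger reads, and the median host had 6 reads. A single read was all that 17 hosts had (22.4%, against 15.2% of all hosts). The median over all hosts of the table was also 6 reads. In all 12 libraries 7 zinc finger hosts were read (Zfp236, Zfp532, Zfp292, Zc3h14, Zbtb16, Zfp148 and Zfp276), which is 9.21%, against 9.58% of all hosts. Chromosome 18 alone held 548 reads from 6 hosts, 27.5% of the total, and chromosome 8 held 442 reads from 9 hosts. Zfp236, the most abundant, was ranked 219 among the hosts of the whole table.

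Counted by entries, the circles of zinc finger hosts were shorter and started closer to the 5' end of the transcript than those of all hosts. Exon numbers are those the table gives for symbol entries, on the transcript it names. Among 126 exonic symbol entries, 45 (35.7%) had exon 2 as their lowest exon, against 22.1% of the 16070 such entries of all hosts, and 8 (6.35%) began beyond exon 10, against 23.6%. The median lowest exon was 3 for zinc finger hosts and 5 for all hosts. Counted by reads the gap at exon 2 was smaller, with 44.7% of zinc finger and 37.1% of all exonic symbol reads. The zinc finger entries joined a median of 2 exons, against 3 in all hosts, and only 7.14% joined 5 or more, against 26.9%. The median genomic span was 3168.5 bases against 5454 bases. Intronic entries made up 36 of the 179 (20.1%), against 13.1% of host gene entries in the whole table, although they took 7.67% of zinc finger reads and 6.80% of all host reads. Between classes, the median lowest exon was 3 for Zfp and for Zbtb, and 6.5 for Zc3h. Entries of a host share its exons and were not tested against the table. The number of exons in the host transcripts, which bounds these measures, was not compared.

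**Figure D1:**
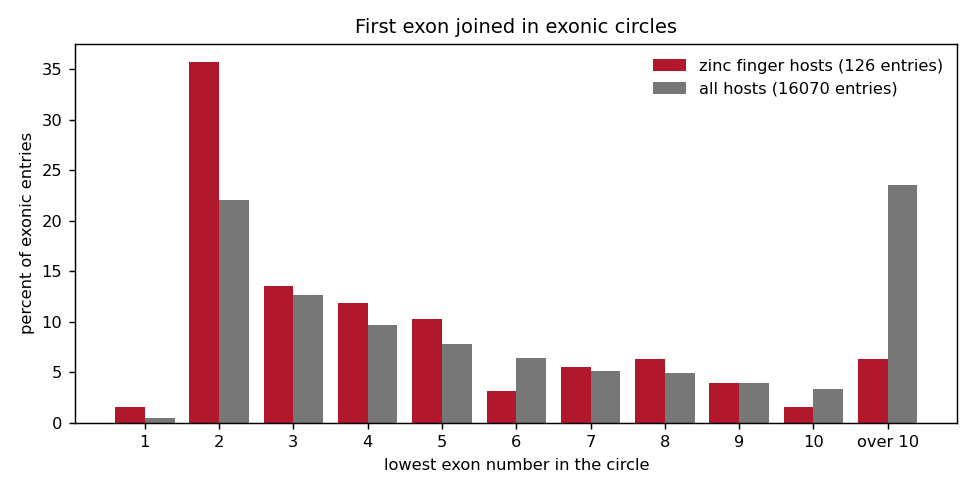
Percent of exonic symbol entries (vertical axis) by the lowest exon number joined in the circle (horizontal axis), for zinc finger hosts (red, 126 entries) and all hosts (grey, 16070 entries). Exon 2 is the most frequent single exon in both, with 35.7% and 22.1%, and zinc finger hosts have fewer entries that begin beyond exon 10 (6.35% and 23.6%).

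Zfp236 was the leading host with 217 reads, 793 ± 373 RPM (SD, n = 12). In human kidney mesangial cells its counterpart is known as a gene whose transcript responds to glucose. A single circle, circRNA949, which joins exons 2 and 3 (chromosome 18, 79530862 to 79532387 of Rnor_6.0, minus strand), held 180 of its reads, 82.9%. Next came circRNA3959, of exons 4 to 6, with 16 reads, and circRNA948, of exons 2 to 4, with 11. Zfp236 stood at 1299 and 1209 RPM in the relapse libraries, at 756, 688, 1240.5, 557 and 239.7 RPM in sleeve gastrectomy libraries 1 to 5, and at 232, 880.3, 1093, 852 and 465 RPM in sham libraries 1 to 5. Both relapse libraries lay above every sham library and above 4 of the 5 sleeve gastrectomy libraries, while the sleeve gastrectomy and sham ranges covered each other.

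Zfp532, whose protein works with the chromatin reader Zmynd8 and whose human counterpart is a fusion partner of NUTM1 in NUT carcinoma, had 213 reads. It was the steadiest of the tested hosts: its counts varied 0.827 times as much as counting error alone would give, whereas the median of the 19 tested hosts was 2.73 times and the highest, Zfp426, 6.27 times. Its level was 812 and 725 RPM in relapse, against 1039.6, 884, 593, 491 and 753 RPM after sleeve gastrectomy and 761, 935, 781, 852 and 511 RPM in sham. The group means of 769 ± 61.3, 752 ± 219.9 and 768 ± 159 RPM (SD, n = 2, 5 and 5) differed by far less than the spread within each group.

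The 8 Zfp532 entries were built from a few shared splice sites. Exons 3 to 6 supplied all junctions but those of circRNA6983, a circle of exon 2, and the intronic ciRNA755. Exons 3 and 4 formed circRNA930 (chromosome 18, 61323690 to 61328704, plus strand) with 104 reads, exons 3 to 6 formed circRNA6984 (61323690 to 61340634) with 59, and exons 3 to 5 formed circRNA3938 with 14. All 3 begin at the same acceptor, and 2 further circles, circRNA3939 of exons 5 and 6 and circRNA931 of exons 4 to 6, end at the same donor as circRNA6984. In relapse, circRNA930 held 29 of the 42 Zfp532 reads and circRNA6984 none, against 42 and 30 of 88 reads after sleeve gastrectomy and 33 and 29 of 83 in sham. The junction of circRNA6984 is written a second time under an identifier, circRNA6206, which shares no transcript name with the symbol entries and is not counted in Zfp532. It had 3 reads, all in relapse library 2, so the junction itself was read in relapse.

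Summed over both entries, the exon 3 to 6 junction stood at 0 and 80.6 RPM in relapse, against 331, 442, 162, 164 and 205 RPM after sleeve gastrectomy and 364, 55, 312, 451 and 93 RPM in sham. The relapse libraries lay below all sleeve gastrectomy libraries and overlapped the sham range. Pooled by group, relapse over sleeve gastrectomy was 0.215-fold (exact 95% interval 0.0420 to 0.691, 3 and 30 reads) and relapse over sham 0.203-fold (0.0395 to 0.653, 3 and 29 reads), with intervals that cover counting error alone. Neither relapse library reached the minimum count for testing, and the junction was named partly by its p. The intervals are thus no independent support for a difference. The fitted log2 fold changes were -2.25 (SE 1.20, adjusted p = 0.9995) and -2.25 (SE 1.20, adjusted p = 0.842), and neither passed. The sister circle circRNA930 had 539 ± 79.2 RPM in relapse, 358 ± 175 after sleeve gastrectomy and 327 ± 186 in sham, with overlapping ranges.

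**Figure D2:**
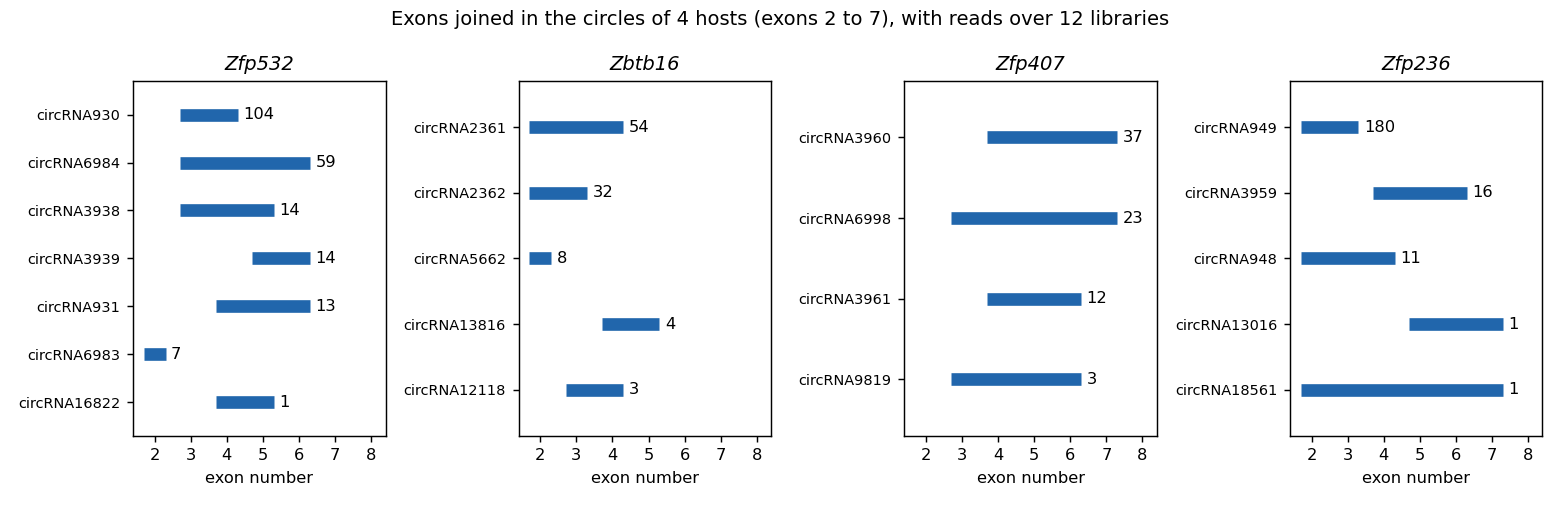
Exons joined (horizontal axis, exon number) in the circles of Zfp532, Zbtb16, Zfp407 and Zfp236, drawn for symbol entries within exons 2 to 7, with the reads over 12 libraries beside each bar. Bars that begin or end at the same exon share a splice site: exon 3 opens the circles with 104, 59 and 14 reads in Zfp532, and exon 2 opens those with 54, 32 and 8 reads in Zbtb16.

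Zfp609, which works with the cohesin loader and Integrator at genes in mouse neural progenitors and whose circle has been studied in mouse and human myoblasts, had 168 reads. Of these 155 fell on circRNA2913, a circle of 1 exon (chromosome 8, 71336876 to 71337745, minus strand) listed under an identifier. Zfp609 had 433 and 295 RPM in relapse, against 1323, 0, 108, 950.2 and 445 RPM after sleeve gastrectomy and 496, 605, 1249, 602 and 697 RPM in sham. Both relapse libraries were below every sham library, while the sleeve gastrectomy libraries ran from 0 reads to the highest level of all 12. Its variance was 6.14 times that of counting error. Symbol entries of Zfp609 held only 4 of the reads, so the host is nearly lost where identifiers are not joined. Its paralog Zfp608 also had most of its 35 reads in a 1-exon circle, circRNA3926 of exon 3, with 31.

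Zfp292, whose human circle has been studied in endothelial cells, had 148 reads. Its main circle, circRNA1259 of exons 2 to 4 (chromosome 5, 50318352 to 50319000, minus strand), had 111, and an identifier entry recorded as intronic, ciRNA614, had 36. The lower coordinate of ciRNA614 lies 1 base from that of circRNA1259, and it spans 5259 bases against 649, so it encloses the exonic circle. Zfp608 showed the same arrangement, with the lower coordinates of ciRNA2319 and circRNA3926 1 base apart. Zfp292 had 108 and 672 RPM in relapse, against 992, 442, 431, 524 and 514 RPM after sleeve gastrectomy and 331, 495, 937, 100.3 and 604 RPM in sham. The groups overlapped widely, with relapse library 1 near the bottom of the range of all libraries and relapse library 2 in its upper part.

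Zfp148 (ZBP-89, a factor of GC-rich promoters) had 95 reads, 77 of them on the junction of exons 2 to 4 (chromosome 11, 70570467 to 70585055, minus strand), which is written under a symbol (circRNA3257) and an identifier (circRNA2749). Its mean level was 202 ± 96.4 RPM in relapse, 369 ± 114 after sleeve gastrectomy and 393 ± 202 in sham. Zfp407, which affects insulin-stimulated glucose uptake in mouse fat cells, had 75 reads in 4 circles that open at exon 3 or 4 and close at exon 6 or 7. It stood at 0 and 215 RPM in relapse, 425, 98.3, 216, 262 and 616 RPM after sleeve gastrectomy and 265, 55, 260.3, 301 and 279 RPM in sham. Its longest circle, circRNA6998 of exons 3 to 7, spans 119865 bases, the longest among zinc finger entries, and had 0, 19 and 4 reads in relapse, sleeve gastrectomy and sham. In Zfp407 and in Zfp148, 1 relapse library lay below all libraries of the other groups and the other lay within their ranges.

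Zfp426 and Zfp280d each had 1 junction among the entries that the rule selects. The Zfp426 junction (exons 2 to 4, chromosome 8, 21481643 to 21490337, minus strand) is again written under a symbol and an identifier, as circRNA9174 and circRNA2756, and its 67 reads were spread from 0 RPM in relapse library 2 and sham library 5 to 953 RPM in sham library 4. Zfp280d had 56 reads, all on circRNA2402 of exons 14 to 16 (chromosome 8, 78908447 to 78910847, plus strand), far from the 5' end. Outside the rule, 2 identifier entries at other junctions of Zfp280d, circRNA12416 and circRNA18253, had 4 reads in sleeve gastrectomy library 4 and 2 reads in sham library 4. Zfp949, a further host of chromosome 8, had 23 reads, 20 of them on circRNA2418 of exons 2 and 3, with 162 ± 229.7 RPM in relapse, 45.8 ± 67.0 after sleeve gastrectomy and 115 ± 149 in sham.

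Zbtb16 (PLZF, a repressor that affects gluconeogenic genes in mouse liver and lies in a region linked to metabolic traits in spontaneously hypertensive rats) led its class with 101 of 240 reads. Its 5 circles were circRNA2361 of exons 2 to 4 (chromosome 8, 53049321 to 53143722, minus strand) with 54 reads, circRNA2362 of exons 2 and 3 (53075011 to 53143722) with 32, circRNA5662 of exon 2 alone with 8, and 2 circles of 4 and 3 reads that contain exon 4. Zbtb16 stood at 325 and 457 RPM in relapse, against 94.5, 884, 431, 524 and 479 RPM after sleeve gastrectomy and 199, 330.1, 156, 201 and 46.5 RPM in sham. Here 4 of the 5 sleeve gastrectomy libraries were above every sham library, while sleeve gastrectomy library 1 was below 4 of them.

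Zbtb48 (TZAP), which binds telomere repeats, had 55 reads, 52 of them on a circle of exons 9 and 10, circRNA1419. Its level was 229 ± 170.4 RPM in relapse, 197 ± 44.1 after sleeve gastrectomy and 138 ± 153 in sham. Zbtb10, a repressor related to Sp factors by the sites it binds, had 36 reads in 2 circles with a common 5' end, circRNA1819 (chromosome 2, 94708676 to 94720889, minus strand) and circRNA1820 (94716331 to 94720889). Zbtb10 stood at 162 and 269 RPM in relapse, 189, 344, 0, 131 and 171 RPM after sleeve gastrectomy, and 0, 0, 156, 0 and 0 RPM in sham. All 3 sham reads were in library 3 and came from an identifier entry, circRNA17484, on the junction of circRNA1819.

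Zc3h14, a nuclear poly(A)-binding protein, led the Zc3h class with 106 of 257 reads. Of these 76 came from circRNA1208, a circle of exon 6 alone (chromosome 6, 122741265 to 122741693, plus strand). Zc3h14 had 704 and 537 RPM in relapse, against 378, 295, 647, 98.3 and 308 RPM after sleeve gastrectomy and 165, 660.2, 104, 401 and 372 RPM in sham. The relapse libraries were at the high end and overlapped both other groups, and circRNA1208 by itself had 284 ± 211, 297 ± 232 and 298 ± 162 RPM in relapse, sleeve gastrectomy and sham. It held 13 of 33 Zc3h14 reads in relapse, against 32 of 38 after sleeve gastrectomy and 31 of 35 in sham. An identifier circle upstream of it, circRNA5927, had 9 reads in relapse, 3 after sleeve gastrectomy and 3 in sham, and 3 further entries with 3 to 5 reads were read in relapse alone. Zc3h11a, which takes part in mRNA export, had 34 reads, 31 on circRNA56 of exons 9 to 11. Its level was 216 ± 154 RPM in relapse, 125 ± 139.7 after sleeve gastrectomy and 94.0 ± 95.9 in sham. Zc3h13, which anchors the m6A writer complex in the nucleus, had 30 reads, of which 14 lay on circRNA3688 of exons 2 to 4 and 11 on an identifier entry whose start differs by 2 bases, and it had 94.6 ± 95.8, 149 ± 169 and 69.7 ± 109 RPM in relapse, sleeve gastrectomy and sham.

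**Figure D3:**
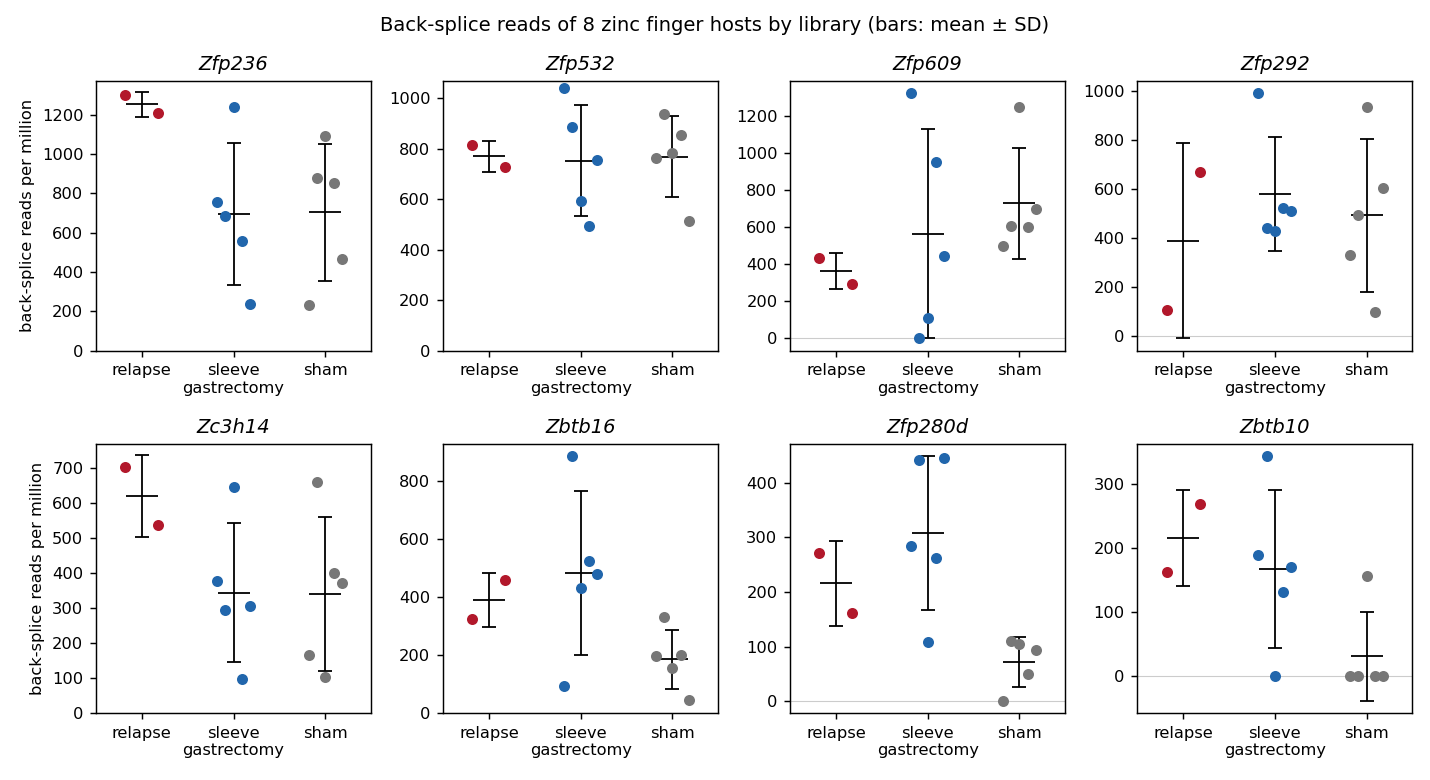
Level of 8 zinc finger hosts (vertical axis, RPM) in each library of the relapse, sleeve gastrectomy and sham groups. Points are libraries, horizontal marks are means and bars are SD (n = 2, 5 and 5). Both relapse points of Zfp236, at 1299 and 1209, lie above all sham points, and 4 of 5 sham points of Zbtb10 are at 0.

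Among the remaining hosts the following were chosen for their known roles, after their values were seen. Zfp143, which binds promoters and chromatin loop anchors, had 50 reads, 33 of them on an identifier entry whose start differs by 2 bases from a symbol circle of exons 5 to 8. Zbtb20, a repressor of alpha-fetoprotein in liver, had 22 reads, of which 1 was in relapse, 17 in sleeve gastrectomy and 4 in sham libraries. With 2 further identifier entries, which share no transcript name with its symbol entries, these counts were 1, 23 and 12. The sleeve gastrectomy libraries hold 42.1% of the reads of the whole table. Zfp106, an RNA-binding protein of motor neurons and muscle, had 28 reads on 1 junction, and Zfp638, a cofactor of fat cell differentiation, had 27. Among RNA-binding members with few reads, Zc3h4, which ends noncoding transcription, had 25, Zc3h18, which links the mRNA cap to the exosome, had 22, and Zc3hav1 (the antiviral protein ZAP) had 16. Zfp52 had 38 reads, 30 of them on ciRNA277, an identifier entry recorded as intronic (chromosome 1, 61388743 to 61406321, plus strand), with 257 ± 249, 47.1 ± 65.9 and 107 ± 174 RPM in relapse, sleeve gastrectomy and sham.

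Summed over all members, zinc finger circles did not separate the groups. The sum was 7037 and 7145 RPM in relapse, 8695, 6879, 7497, 6946 and 7225 RPM after sleeve gastrectomy, and 5627, 6987, 8328, 6769 and 5672 RPM in sham, with means of 7091 ± 76.1, 7448 ± 739 and 6677 ± 1112 RPM (SD, n = 2, 5 and 5). The Zfp class averaged 4948 ± 45.8, 5519 ± 1044 and 5268 ± 1091 RPM in relapse, sleeve gastrectomy and sham, and the Zc3h class 1187 ± 159, 896 ± 386 and 865 ± 374 RPM. The Zbtb class had 758 and 1155 RPM in relapse, 473, 1621, 863, 1114 and 1096 RPM after sleeve gastrectomy, and 397, 550.2, 468, 602 and 697 RPM in sham. In that class both relapse libraries and 4 of 5 sleeve gastrectomy libraries were above the whole sham range, with the remaining one, library 1, inside it. For relapse this depended on the joining of entries: with identifiers joined more widely, an alternative chosen after seeing the data, sham library 4 stood at 802 RPM, above relapse library 1 at 758 RPM, so that relapse and sham overlapped, while the same 4 sleeve gastrectomy libraries remained above it. These sums were chosen with earlier results known, and no test was made on them.

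**Figure D4:**
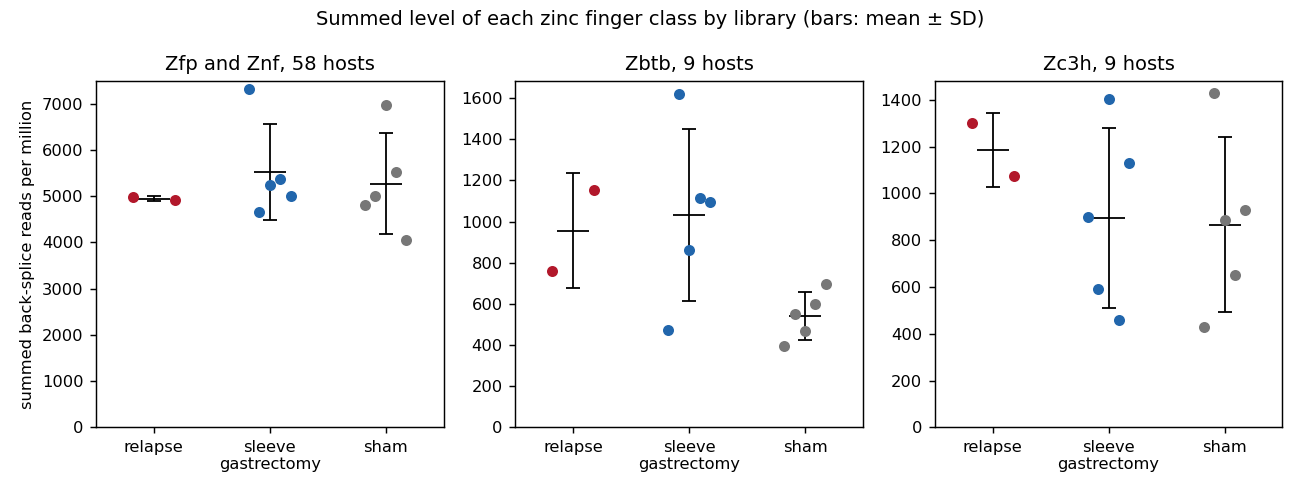
Summed level (vertical axis, RPM) of the Zfp and Znf class (58 hosts), the Zbtb class (9 hosts) and the Zc3h class (9 hosts) in each library of the relapse, sleeve gastrectomy and sham groups. Points are libraries and marks with bars are mean ± SD. The Zbtb sums average 956, 1033 and 543 in the 3 groups. Sleeve gastrectomy library 1, at 473, lies inside the sham range of this class, and the relapse and sleeve gastrectomy points overlap. With identifiers joined more widely, relapse and sham overlap as well. In the other classes all groups overlap.

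For the tests, 19 of the 76 hosts (25.0%) had enough reads, against 1368 of all hosts (21.0%): 13 Zfp, 3 Zbtb and 3 Zc3h genes with 1602 of the 1996 reads. The other 57 hosts had at most 28 reads each and are described without a test. The 3 comparisons are not independent, since the sleeve gastrectomy libraries serve in 2 of them, and so do the sham and the relapse libraries.

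Sleeve gastrectomy was set against sham to see whether circle levels in diabetic liver differ after the operation. No zinc finger host passed the threshold (edgeR quasi-likelihood test, FDR 0.05), where 0.146% of all tested hosts did. At an unadjusted p under 0.05 there were 2 of 19 hosts by edgeR and 2 by limma-voom, with 3.29% of all tested hosts by edgeR. DESeq2, run without the read filter, had 2 among all zinc finger hosts. Of the 19 log2 fold changes 11 were above 0 (51.5% of all tested hosts), with a median of 0.26 (0.03 over all tested hosts).

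The hosts with an unadjusted p under 0.05 in edgeR were Zfp280d and Zbtb16. Zfp280d had 284, 442, 108, 262 and 445 RPM in sleeve gastrectomy libraries 1 to 5, against 0, 110.0, 104, 50.1 and 93.0 RPM in sham, from 38 and 7 reads. All 5 sleeve gastrectomy libraries lay above the sham mean of 71.5 ± 46.3 RPM, and the groups overlapped by a narrow margin at their edge. No sham library of Zfp280d reached the minimum count for testing, so the host was tested through libraries of the other groups alone. This separation is thus no independent support for a difference. The log2 fold change was 2.12 (SE 0.91, adjusted p = 0.994). For Zbtb16, with means of 483 ± 281 and 186 ± 102 RPM after sleeve gastrectomy and in sham, it was 1.37 (SE 0.60, adjusted p = 0.994), with 4 of 5 libraries above the sham mean. The next values were 2.33 for Zbtb10 (SE 1.32) and -1.26 for Zfp949 (SE 1.46), both with an adjusted p of 0.994 in edgeR. Pooled reads of Zbtb10 gave 6.07-fold (exact 95% interval 1.80 to 31.9, 20 and 3 reads, counting error alone). No sham library of Zbtb10 reached the minimum count for testing, and the host was named partly by its p. This interval is thus no independent support for a difference.

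At the level of junctions, 18 zinc finger junctions of 1519 tested in all were followed, and none passed in this comparison, as was so for all junctions (0%). With an unadjusted p under 0.05 there was 1 by edgeR and 2 by limma-voom, against 3.88% of all tested junctions by edgeR. DESeq2, run without the read filter, had 2 among all zinc finger junctions. The edgeR one was circRNA2402, the only Zfp280d junction selected by the rule, at a log2 fold change of 2.14 (SE 0.87) with an adjusted p of 0.996 in edgeR. No sham library of circRNA2402 reached the minimum count for testing, so this value is no independent support for a difference. circRNA2362 of Zbtb16 had 47.3, 246, 269.7, 197 and 171 RPM after sleeve gastrectomy, against 99.3, 0, 0, 0 and 0 RPM in sham, which was 6.68-fold in pooled reads (exact 95% interval 2.01 to 34.8, 22 and 3 reads, counting error alone) or 2.70 on the log2 scale of the fit (SE 1.38, adjusted p = 0.996 in edgeR). It reached the minimum count for testing through sleeve gastrectomy libraries alone and was named by its p. Its interval is thus no independent support for a difference. The longer Zbtb16 circle circRNA2361, which shares its exon 2 acceptor, had 221 ± 244 and 149 ± 94.8 RPM after sleeve gastrectomy and in sham. For circRNA1259 of Zfp292 the log2 fold change was 0.47 (SE 0.53, adjusted p = 0.996).

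Relapse was compared with sleeve gastrectomy to see how the return of diabetes after the same operation goes with circle levels. No zinc finger host passed in edgeR, where 0.146% of all tested hosts did, and none had an unadjusted p under 0.05 in edgeR or DESeq2 (limma-voom had 1), where 4.09% of all tested hosts did by edgeR. Log2 fold changes were above 0 in 8 of 19 hosts (46.2% of all), with a median of -0.46 against -0.07 over all tested hosts. The smallest p belonged to Zfp236, with 1254 ± 64.0 RPM in relapse and 696 ± 363 RPM after sleeve gastrectomy, from 69 and 77 reads. Its log2 fold change was 0.85 (SE 0.49, adjusted p = 0.9997), and sleeve gastrectomy library 3 reached the relapse level. Beside this, Cyp2c7, the hepatocyte marker with the most reads, had 11849 ± 603 RPM in relapse and 20502 ± 4115 RPM after sleeve gastrectomy (adjusted p = 0.193, edgeR), and its part in the relapse values was not tested. The log2 fold changes were -1.37 for Zfp407 (SE 1.02), 0.83 for Zc3h14 (SE 0.68) and -0.95 for Zfp148 (SE 0.79), each with an adjusted p of 0.9997 in edgeR.

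Of the 18 junctions none passed here either (0% of all tested junctions). None had an unadjusted p under 0.05 in edgeR and 1 did in limma-voom, with 4.81% of all tested junctions in edgeR. DESeq2, run without the read filter, had 1 among all zinc finger junctions. After the Zfp532 junction of exons 3 to 6 came circRNA949 of Zfp236, which had 1083 and 1048 RPM in relapse, against 709, 295, 1187, 491 and 171 RPM after sleeve gastrectomy, or 0.94 as log2 fold change (SE 0.53, adjusted p = 0.9995 in edgeR). The intronic ciRNA277 of Zfp52 had 433 and 80.6 RPM in relapse and 0, 0, 0, 98.3 and 137 RPM after sleeve gastrectomy, or 2.08 as log2 fold change (SE 1.71, adjusted p = 0.9995 in edgeR). Its value rested on relapse library 1, without which it was 0.62.

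Between relapse and sham again no zinc finger host passed in edgeR, against 0.0731% of all tested hosts. None had an unadjusted p under 0.05 by edgeR or DESeq2, and 2 did by limma-voom, with 5.56% of all tested hosts by edgeR. In 10 of 19 hosts the log2 fold change was above 0 (46.6% of all), with a median of 0.31 against -0.06 over all tested hosts. Both relapse libraries were above all 5 sham libraries for 3 hosts (Zbtb10, Zfp236 and Zfp280d), 5.26% being the share of all tested hosts, and below all of them for 1 (Zfp609), with 4.75% of all. For Zbtb10 and Zfp280d no sham library reached the minimum count for testing, so their separation is no independent support for a difference. In the other 2 comparisons no zinc finger host had groups without overlap, where 0.585% of all tested hosts were wholly higher and 0.365% wholly lower after sleeve gastrectomy than in sham, and 5.26% wholly higher and 4.46% wholly lower in relapse than after sleeve gastrectomy.

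Zbtb10 had the largest fold change in this comparison, 2.69 on the log2 scale (SE 1.54, adjusted p = 0.856), with 216 ± 75.1 RPM in relapse and 31.2 ± 69.8 RPM in sham. Pooled reads gave 8.48-fold (exact 95% interval 2.33 to 46.4, 13 and 3 reads, counting error alone). Here too no sham library reached the minimum count for testing, so the interval is no independent support for a difference. The other values were 0.84 for Zfp236 (SE 0.49, adjusted p = 0.865), 1.07 for Zbtb16 (SE 0.75, adjusted p = 0.967) and 1.54 for Zfp280d (SE 1.13, adjusted p = 0.967), all by edgeR. For Zfp609 it was -1.04 (SE 0.90, adjusted p = 0.983). Among the junctions none passed (0% of all) and 5.79% of all had an unadjusted p under 0.05 in edgeR, with 0 zinc finger junctions by edgeR, 0 by DESeq2 and 1 by limma-voom. By log2 fold change circRNA949 of Zfp236 was at 0.94 (SE 0.53, adjusted p = 0.865 in edgeR) and circRNA2402 of Zfp280d at 1.58 (SE 1.08, adjusted p = 0.915). As in the comparison above, no sham library of circRNA2402 reached the minimum count for testing.

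The precision of these values differed between comparisons and members. The median SE of the 19 log2 fold changes was 0.84 between sleeve gastrectomy and sham and 1.13 in either comparison with relapse. It exceeded 1 in 6, 12 and 12 hosts, and the smallest, those of Zfp532, were 0.36, 0.47 and 0.47. In both comparisons with relapse, a doubling was thus smaller than 1 SE for 12 of the 19 hosts and not detectable for them at this depth. For Zfp532, the log2 fold changes were -0.03, 0.00 and -0.03 in the same order.

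**Figure D5:**
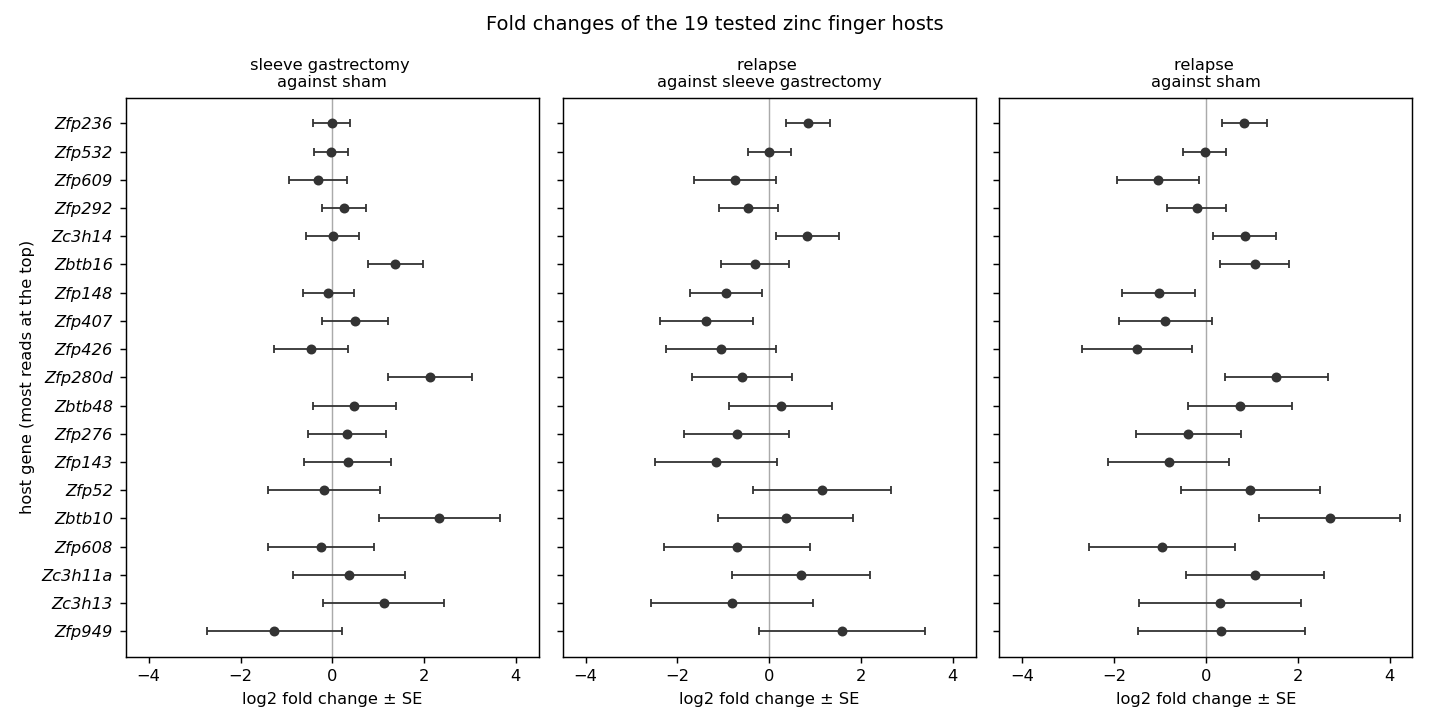
Log2 fold change with SE (horizontal axis) of the 19 tested zinc finger hosts, ordered by reads with Zfp236 at the top, in the 3 comparisons. Positive values are higher in the first group of each title. Bars widen towards the hosts with fewer reads at the bottom, and the values furthest from 0 belong to Zbtb10 (2.69 against sham in relapse, 2.33 after sleeve gastrectomy) and Zfp280d (2.12 after sleeve gastrectomy).

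Genes around the family were read in the same libraries, from lists chosen with earlier results of these data known. Of 87 other zinc finger genes outside the rule (Zeb, Klf, Ikzf, Zmiz, Zcchc and similar) 40 had reads and 13 were tested. None passed in any comparison, nor did any of 9 tested co-repressors of KRAB proteins, 5 tested partners of BTB proteins or 7 tested RNA partners of CCCH proteins. The background shares were those given above, 0.146%, 0.146% and 0.0731% at the FDR threshold and 3.29%, 4.09% and 5.56% at an unadjusted p under 0.05. At an unadjusted p under 0.05, sleeve gastrectomy against sham had 0 genes of the 4 lists by edgeR, DESeq2 and limma-voom. Against sleeve gastrectomy, relapse had 2 of the other zinc finger genes by edgeR and by DESeq2 and 0 by limma-voom, 1 KRAB co-repressor by DESeq2 and by limma-voom, and 1 RNA partner by limma-voom. Against sham, it had 1 of the other zinc finger genes by each tool and 1 KRAB co-repressor by edgeR and DESeq2. The median log2 fold changes of the 7 RNA partners were 0.07 (sleeve gastrectomy against sham), 0.51 (relapse against sleeve gastrectomy) and 1.01 (relapse against sham), beside 0.03, -0.07 and -0.06 over all tested hosts. Summed over all 29 RNA partners with reads, the level was 8607 to 9374 RPM in relapse, 7551 to 9273 RPM after sleeve gastrectomy and 7221 to 8968 RPM in sham, and these ranges overlapped. In the same order of comparisons the medians were -0.34, 0.04 and 0.21 for the other zinc finger genes, -0.09, -0.23 and -0.12 for the KRAB co-repressors and 0.20, 0.09 and -0.23 for the BTB partners.

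Within these lists the smallest p was that of Zcchc7, a cofactor of nuclear RNA decay. It had 0 reads in both relapse libraries, against 265, 110.0, 781, 351 and 93.0 RPM in sham (adjusted p = 0.722 in edgeR). The pooled sham level was 5.79 times a limit of 3 reads over the relapse group. That ratio leaves out the spread in sham, where library 3 held 15 of the 34 reads, so it is no lower bound. After sleeve gastrectomy Zcchc7 had 189, 0, 162, 0 and 239.7 RPM. Zcchc2 had 866 and 53.7 RPM in relapse and 39.2 ± 24.6 RPM after sleeve gastrectomy, and relapse library 1 alone set that mean (adjusted p = 0.9997 in edgeR). Of the co-repressors, Gatad2b, a subunit of the NuRD complex, had 80.6 ± 114 RPM in relapse and 427 ± 219.6 RPM in sham (adjusted p = 0.845 in edgeR), and Smchd1, of the inactive X chromosome, 40.3 ± 57.0 RPM in relapse and 329.8 ± 215 RPM after sleeve gastrectomy (adjusted p = 0.9997). Ncor1, a co-repressor bound by BTB domains, had 135 ± 37.4 RPM in relapse and 312 ± 134 RPM after sleeve gastrectomy, and Kdm1a, a histone demethylase, 53.7 ± 76.0 and 191 ± 84.6 RPM in relapse and after sleeve gastrectomy (adjusted p = 0.9997 each, edgeR). Cnot4, a ligase of the deadenylase complex, had 472 ± 54.7 RPM in relapse and 175 ± 57.4 RPM in sham (adjusted p = 0.96), and Zcchc8, a partner of Mtrex in nuclear decay, 240.2 ± 164 RPM after sleeve gastrectomy and 93.7 ± 119 RPM in sham (adjusted p = 0.994, both edgeR).

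Naming within the table bears on several members. Identifier entries held 20.3% of zinc finger reads. With both entries inside the rule, 5 zinc finger junctions (in Zbtb10, Zc3h14, Zfp106, Zfp148 and Zfp426) are written once under a symbol and once under an identifier. In none of the 5 did any library have reads in both entries, and in the whole table a library with both occurred in 14 of 808 such pairs. A single read made up 38.1% of the values above 0 in symbol entries and 2.26% in identifier entries. An entry taken alone would thus show 0 in libraries where its junction was read: for Zfp426, circRNA9174 had reads in 6 libraries and circRNA2756 in 4 others. A wider joining of identifiers, through gene records and junctions as well, would add 8 entries with 36 reads, of which 4 entries lie on junctions of the family (2 in Zfp532, 1 in Zc3h18 and 1 in Zc3h7a) and 4 lie at other junctions (2 in Zbtb20 and 2 in Zfp280d).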

How the data were processed

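Total RNA of rat liver was depleted of ribosomal RNA and digested with RNase R, which removes linear RNA, and dUTP libraries were sequenced in pairs on an Illumina HiSeq, per the labels' protocols. cutadapt 1.9, FastQC, TopHat2 2.0.10 and the build Rnor_6.0 are named in the submitters' processing notes; the caller of back-splice junctions is not given in the sources used here. The deposited table holds back-splice read counts per entry and library, which were used, and a normalised signal (SRPBM), which per the deposited values is the count times 1 constant per library and was not used. Intergenic entries (10.3% of reads) name no gene and stayed out of host tests, and they count in the RPM totals.

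Identifier entries joined a symbol through a shared transcript name (1088 of 1696 identifiers), and entries were summed by host. For junction tests, entries with the same chromosome, start, end and strand were summed, after starts counted from 0 were moved to 1. Identifier circRNA starts were counted from 1 in 1206 entries and from 0 in 750, judged by the flanking introns listed, and 263 were unclear, so that some double entries may remain apart. Starts of intronic identifier entries were used as deposited, without such a check. Hosts and junctions were tested in R 4.3.3 with edgeR 4.0.16 (TMM scaling, filterByExpr with minimum count 5 and minimum total 15, 1 fit of the 3 groups, robust quasi-likelihood F-test, Benjamini-Hochberg adjustment over all tested hosts or junctions, FDR 0.05). SE is the size of the log2 fold change over the square root of F. As a check of the code, the fit was also run on counts simulated for sleeve gastrectomy against sham. That run does not measure power for hosts with few reads or for the comparisons with relapse. Alternatives were DESeq2 1.42.0, limma-voom (limma 3.58.1), other scaling, filters, joining, 2 groups alone, a replicate block and leaving out each library. DESeq2 was run on all hosts and junctions without the read filter. Same-numbered libraries did not deviate together (correlations -0.074 to 0.0275). With so few reads per host, these correlations cannot show whether the numbers pair the libraries.

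Named hosts are the 10 with most reads, the 3 with most reads per class, any past the threshold and the 4 with the smallest p in each comparison; named junctions are the 8 with most reads and the 3 with the smallest p. Of other lists at most 2 genes are named, by p. Members, lists and rules were chosen with earlier results of these data known. No sequence of the circles was at hand, and none is shown.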

Additional observations from a re-analysis of the deposited data

Results flagged for a closer look

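In 38 groups of 5 libraries, taken from the named hosts and the class sums, the highest or lowest library was compared with the others, and 7 lay further out than Dixon's 95% limit allows. Chance gives about 5% of such groups, 1 in 20, and many hosts have few reads. Sham library 3 was highest for 3 hosts: Zfp609 with 1249 RPM, the other sham libraries having 496 to 697 RPM, Zbtb10 with 156 RPM beside 0 in the others, and Zc3h13 with 260.3 RPM beside 0 to 55.0 RPM. Sham library 2 was lowest for Zfp407 with 55.0 RPM, the others having 260.3 to 301 RPM. Sleeve gastrectomy library 1 was highest for Zfp292 with 992 RPM, beside 431 to 524 RPM, and for the sum of the Zfp class with 7325 RPM, beside 4668 to 5374 RPM. Sleeve gastrectomy library 3 was highest for Zfp949 with 162 RPM, beside 0 to 34.2 RPM. In the Zfp292 group the main circle, circRNA1259, was even across the sleeve gastrectomy libraries (446 ± 46.0 RPM).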

How the results depend on the processing

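No zinc finger host passed the threshold in any of 66 alternatives, and no zinc finger junction in any of 60. The smallest adjusted p over them was 0.530, 0.430 and 0.459 for hosts and 0.390, 0.606 and 0.580 for junctions in sleeve gastrectomy against sham, relapse against sleeve gastrectomy and relapse against sham. Leaving out each library in turn gave 0 to 0 calls. With the replicate number as a block the count was also 0 in each comparison, at both levels. Whether the numbers pair the libraries is not known. Over all hosts, edgeR called 2, 2 and 1 in the same order of comparisons, DESeq2 0, 0 and 0, limma-voom 0, 1 and 0, and edgeR with no filter 1, 3 and 3; the cause was not tested. The 21 fold changes, which were chosen by small p in these data, kept their direction in all 406 alternatives that gave a value. Where a feature failed the filter of an alternative, it gave none. The alternatives reuse nearly the same libraries, so kept directions are not independent support.

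Of 87 alternatives for summed levels, 76 moved by less than 1 SD. The others, in RPM, were as follows. With symbol entries alone, which leaves out the identifier reads, the sum was 5824 in relapse, 6092 after sleeve gastrectomy and 5154 in sham, the Zfp class 3841, 4273 and 3831, and the Zc3h class in relapse 1026. With TMM-scaled totals relapse had 6999 in all and 4879 for the Zfp class. Without Zfp236 the relapse sum was 5837, and with the wider joining, chosen after seeing the data, 7239.7. That joining gave a Zbtb mean of 624.7 in sham, within 1 SD, and the Zbtb sums of relapse and sham then overlapped. Leaving out libraries gave sums of 7037 to 7145 in relapse, 7137 to 7591 after sleeve gastrectomy and 6264 to 6939 in sham.

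Single libraries set several fold changes (log2). Zbtb10 was 5.05 after sleeve gastrectomy and 5.41 in relapse, both against sham, without sham library 3. circRNA2362 was 5.15 without sham library 1, and Zfp949 was -2.30 without sleeve gastrectomy library 3, both between sleeve gastrectomy and sham. For relapse against sleeve gastrectomy, Zfp407 was -0.50 without relapse library 1 and -5.93 without relapse library 2, and the exon 3 to 6 junction of Zfp532 was -1.53 and -5.57, which it also was against sham. ciRNA277 was 0.62 without relapse library 1 and 2.77 without sleeve gastrectomy library 5. Fitted values against a group at 0 depend on the prior count. Few reads per host and 2 relapse libraries limit the precision.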
